A study of Mus musculus with 8 samples.

Results

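The insulin signalling genes analysed here were 7 genes of mouse liver, *Insr*, *Irs1*, *Irs2*, *Pik3r1*, *Akt2*, *Trib1* and *Trib3*. They were chosen by name for their place in the pathway, with earlier results of these data known. Around their gene starts lay 93 of the 51431 sites bound by the glucocorticoid receptor (GR), and 17 of the 8068 regions bound by the forkhead factor FOXO1. A GR site was a stretch of the mm10 genome in which peaks of the 6 GR libraries overlapped, and it was assigned to a gene when its centre lay within 50 kb of the gene start. Chromatin immunoprecipitation followed by sequencing (ChIP-seq) had been done on livers of male C57BL/6J mice on chow, collected at lights-off, when the corticosterone level of the mouse peaks. Control mice (ctrl.) ate freely and, in the last week, only at night. Calorically restricted mice (cal. res.) had their ration lowered in steps and were fed at lights-off. CORT mice were fed at night and received corticosterone, the main glucocorticoid of the mouse, by daily injection for a week. The label of the ctrl. group names the feeding alone and no vehicle. Each group had 2 GR libraries, described in the methods as biological replicates. FOXO1 was mapped in cal. res. livers alone, and its 2 libraries were merged into 1 list before peak calling, so the FOXO1 values carry no replicate spread and have no ctrl. or CORT counterpart. Whole liver was used, so binding in hepatocytes and in other liver cells cannot be told apart.

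Insulin binds the receptor tyrosine kinase encoded by *Insr*, which phosphorylates the docking proteins IRS1 and IRS2. These recruit phosphoinositide 3-kinase through its regulatory subunit p85 alpha, the product of *Pik3r1*, and the lipid signal that follows activates AKT2, the main AKT kinase of insulin action in liver. AKT phosphorylates FOXO1, which then leaves the nucleus, so FOXO1 occupies chromatin mainly in fasting. *Irs2* is a known FOXO1 target, and the pseudokinase TRIB3 can bind AKT and hold back its activation. TRIB1, a related pseudokinase, brings proteins such as C/EBP alpha to the COP1 ubiquitin ligase. Glucocorticoids act through GR and are known to oppose insulin action in liver.

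Peak lists differed in length, which bears on how many sites a library could show. The GR lists held from 12458 distinct regions, in ctrl. replicate 2, to 39136, in CORT replicate 2, while ctrl. replicate 1 held 36234. Library names followed 2 styles. Ctrl. replicate 2 and both cal. res. libraries shared 1, and ctrl. replicate 1 and both CORT libraries the other. Between cal. res. and CORT, style and group thus differ together, and only the difference between the 2 ctrl. libraries can separate them. Fold enrichment, the height of a peak over its local background, is comparable only within a list. Binding was therefore given as a percentile, the share of regions in the same list with a fold enrichment at or below that of the site, ties sharing a mean rank and 100 the strongest. Read totals were not analysed here.

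The DNA under the binding sites that the results turn on is shown first, as 200 bp around a summit on the plus strand of GRCm38, the assembly that mm10 names. Capitals mark the GR hexamer AGAACA, the FOXO element GTAAACA or a palindromic GR element, which was searched as GNACA and TGTNC separated by 3 bases. Each motif was searched on both strands, and the core CAAAACA of the insulin response element was searched too. The palindromic element and the hexamer share letters, so they can overlap. The first pair are the strongest GR site of the 7 genes, in an intron of the transcript *Gm14164* upstream of *Trib3* (chr2:152360518-152360717), and the site just upstream of *Irs2* (chr8:11009756-11009955), both of which overlapped FOXO1 and held none of the searched strings.
Trib3 -16.2 kb: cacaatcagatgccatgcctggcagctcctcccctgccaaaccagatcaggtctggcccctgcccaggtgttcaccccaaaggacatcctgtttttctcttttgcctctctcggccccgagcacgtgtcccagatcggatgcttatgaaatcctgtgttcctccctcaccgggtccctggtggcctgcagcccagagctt
Irs2 -0.9 kb: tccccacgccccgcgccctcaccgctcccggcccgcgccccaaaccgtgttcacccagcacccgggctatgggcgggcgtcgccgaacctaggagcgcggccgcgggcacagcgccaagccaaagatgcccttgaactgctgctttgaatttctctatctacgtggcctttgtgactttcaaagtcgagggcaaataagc

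The FOXO1 summit downstream of *Irs2* (chr8:10965453-10965652) held a FOXO element and 3 GR hexamers within 200 bp, and the GR site there was present in all 6 lists. The 200 bp around the GR summit of that site held none of the searched strings. The GR summit in the *Insr* intron (chr8:3256617-3256816) held a FOXO element at bases 6 to 12, near the edge of the window. The site overlapped FOXO1, but the 200 bp around the FOXO1 summit there held no FOXO element. The site between the others upstream of *Trib3* (chr2:152361973-152362172) held a FOXO element and, in the same window, a GR hexamer, but no FOXO1 region overlapped it. The only palindromic GR element among the 93 sites lay at the site upstream of *Pik3r1* (chr13:101812026-101812225), where it overlapped a hexamer.
Irs2 +42.9 kb, FOXO1 summit: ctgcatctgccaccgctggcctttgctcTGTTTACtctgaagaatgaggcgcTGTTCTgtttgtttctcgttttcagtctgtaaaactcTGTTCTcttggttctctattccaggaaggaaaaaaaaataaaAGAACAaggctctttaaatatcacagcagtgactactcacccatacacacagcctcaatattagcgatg
Insr +23.1 kb: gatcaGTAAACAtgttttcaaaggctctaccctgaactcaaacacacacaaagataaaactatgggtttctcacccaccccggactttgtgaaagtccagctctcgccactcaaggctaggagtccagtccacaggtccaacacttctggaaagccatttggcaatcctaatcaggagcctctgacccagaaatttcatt
Trib3 -18.1 kb: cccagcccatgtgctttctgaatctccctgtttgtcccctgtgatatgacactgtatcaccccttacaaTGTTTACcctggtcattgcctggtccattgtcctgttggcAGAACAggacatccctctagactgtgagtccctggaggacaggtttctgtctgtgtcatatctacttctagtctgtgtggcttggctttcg
Pik3r1 -44.0 kb: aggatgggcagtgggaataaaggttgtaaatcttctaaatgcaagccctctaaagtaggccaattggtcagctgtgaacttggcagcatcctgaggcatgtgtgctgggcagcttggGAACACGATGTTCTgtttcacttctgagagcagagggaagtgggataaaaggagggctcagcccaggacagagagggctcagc

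Over all 93 sites, 21 held the GR hexamer in the 200 bp around the summit, 8 the FOXO element, 9 the insulin response core and 1 the palindromic element. The shares were 22.6%, 8.60%, 9.68% and 1.08%. Of 51428 GR sites with a full window, 18.6% held the hexamer, 5.21% the FOXO element, 6.7% the insulin response core and 1.95% the palindromic element. Among the 15 sites that overlapped FOXO1, 3 held the FOXO element at the GR summit (20%), against 13.9% of all GR sites with FOXO1. Centred on the FOXO1 summit, 4 of the 17 regions held it (23.5%), at *Trib1*, at *Irs2* +42.9 kb and at *Insr* +48.8 and +0.1 kb, against 18.9% of all FOXO1 regions. A match is a description of letters in a window and not a measured contact.

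All 7 genes had at least 1 site present in all 6 lists, and 6 of the 7 had a FOXO1 region. *Pik3r1* carried 25 GR sites, *Insr* 20, *Trib1* 16, *Irs2* 11, *Trib3* 9, *Irs1* 7 and *Akt2* 5. The median of the 21911 protein-coding genes was 3 sites, and the 7 genes lay between the percentile 62.9, for *Akt2*, and 99.6, for *Pik3r1*, of that distribution. *Irs2* had 4 FOXO1 regions, *Insr*, *Pik3r1*, *Trib1* and *Trib3* had 3 each, *Irs1* had 1 and *Akt2* had none. At least 1 FOXO1 region lay within 50 kb of 33.3% of coding genes and at least 3 of 7.79%, which 5 of the 7 genes reached. The member was the nearest coding gene of 82 of the 93 sites. The exceptions included 6 of the 9 sites at *Trib3*, which stands among other genes.

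**Figure D1:**
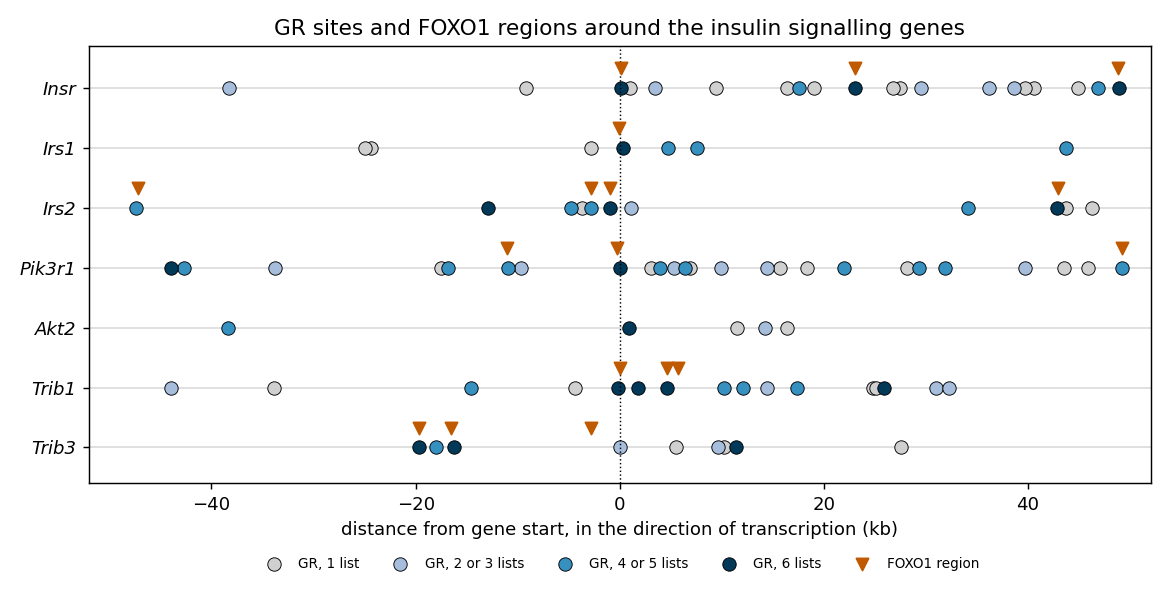
Position of each GR site (circles, coloured by the number of the 6 GR lists with a peak) and each FOXO1 region (triangles) by distance in kb from the gene start, with positive values in the direction of transcription. FOXO1 triangles stand mostly above the darkest circles: 11 of the 15 GR sites with FOXO1 were in all 6 lists, and *Akt2* has no triangle.

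In the full lists, cal. res. did not separate from ctrl. by the number of GR sites near the 7 genes, whereas CORT did. The ctrl. libraries had 57 and 20 sites, the cal. res. libraries 42 and 41, and the CORT libraries 58 and 75. The 2 ctrl. libraries thus enclosed both cal. res. values, and both CORT values lay above all others. In the same order, these were 61.3%, 21.5%, 45.2%, 44.1%, 62.4% and 80.65% of the sites near the 7 genes. The libraries had 67.6%, 22.3%, 40.3%, 33.7%, 53.8% and 73.6% of all GR sites. There ctrl. replicate 1 lay above CORT replicate 1. The mean was 38.5 ± 26.2 sites in ctrl., 41.5 ± 0.707 in cal. res. and 66.5 ± 12.02 in CORT (SD, n = 2). Against ctrl., cal. res. differed by 3 sites per library (two-sided exact permutation test, p = 1) and CORT by 28 (exact permutation p = 0.333, the smallest value that 2 libraries per group allow). Within the name style that cal. res. shares with 1 ctrl. library, the difference was 21.5 sites, and within that of CORT it was 9.5. When each list was limited to its 12458 regions with the smallest p-values, the libraries had 22, 20, 26, 28, 24 and 25 sites in the same order. CORT then stood 2.5 sites below cal. res., where it had stood 25 above.

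*Pik3r1* showed the widest gap between the ctrl. libraries, with 16 and 2 sites, while the cal. res. libraries had 12 and 9 and the CORT libraries 19 and 18. The CORT libraries were the highest there, with lists of unequal length. Of all coding genes, 46.5% had more sites with a peak in both CORT libraries than with a peak in both ctrl. libraries. When lists were of equal length, all the genes together had 26 and 28 sites in cal. res. and 24 and 25 in CORT. Counts per gene with equal lists are not given here. At *Insr*, CORT replicate 2 alone had 17 sites, and the other 5 libraries had between 3 and 9. *Irs1* and *Akt2* had no more than 6 sites in any library. *Trib1* had 13 and 4 under ctrl. feeding, 8 and 9 under cal. res. and 12 and 13 with CORT, and *Irs2* 8 and 3, 7 and 6, and 10 and 7. *Trib3* was the gene at which the ctrl. libraries matched, with 4 sites in each, against 5 and 4 for cal. res. and 6 and 9 for CORT. Both CORT values lay above the rest there too, and the share of coding genes with this order was not counted.

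**Figure D2:**
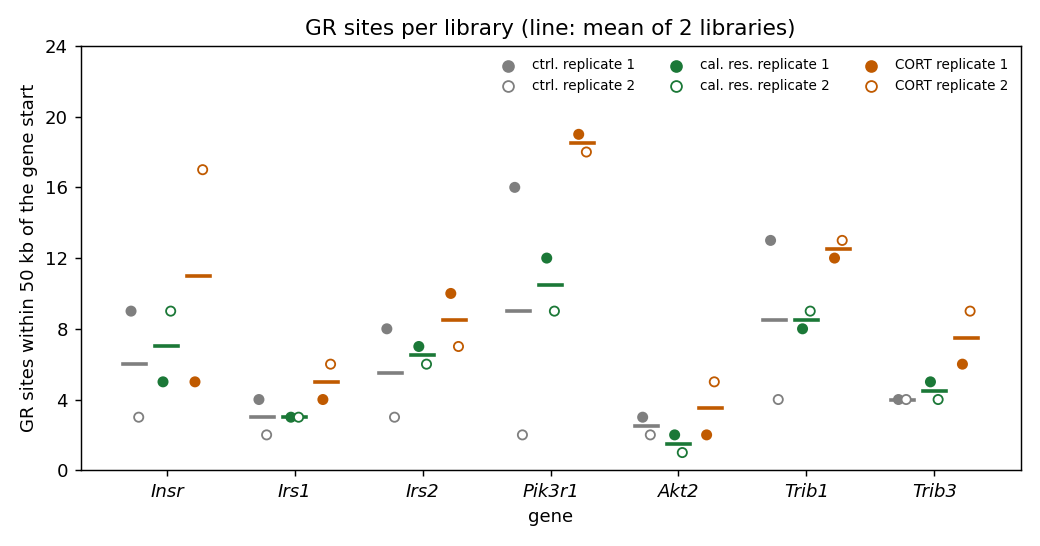
GR sites within 50 kb of each gene start (vertical axis, number of sites) in each library, with filled circles for replicate 1, open circles for replicate 2 and a line at the mean of 2 libraries. The distance between the grey circles, 16 and 2 sites at *Pik3r1*, is as large as most differences between groups.

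Below, a site counts as held by a group only if neither library of that group lacked a peak in it. Ctrl. held 19 of the 93 sites, cal. res. 33 and CORT 48, and all 3 groups held 17, or 18.3% against 15.7% of all GR sites. Of all 51431 GR sites, cal. res. held 14354, and the numbers held by ctrl. and by CORT are not given here. Cal. res. held 16 sites that ctrl. did not, and 11.5% of all GR sites had this pattern. Of those 16 sites, 14 had a peak in ctrl. replicate 1, the longer ctrl. list, against 91.8% over all sites, and 1 lacked a peak in both ctrl. libraries. CORT held 29 that ctrl. did not, where the share of all sites was 24.3%, and 5 of them had no ctrl. peak. A further 33 sites were in 1 list of 6, against 37.4% of all sites, and 19 of these were in CORT replicate 2. Without ctrl. replicate 2 the sites held over ctrl. numbered 2 in cal. res. and 6 in CORT, and without CORT replicate 1 they numbered 56 in CORT. With either library counted as enough, cal. res. held 8 sites over ctrl.

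Cal. res. alone held 3 sites, 2 at *Irs2* and 1 at *Insr*, against 2.39% of all sites. CORT alone held 16, of which 7 lay at *Pik3r1* and 4 at *Trib1*, against 15.2% of all sites. Ctrl. and CORT but not cal. res. held 2, in the intron of *Irs1* and at the start of *Pld3* upstream of *Akt2*, against 3.59% of all sites.

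Most GR sites with FOXO1 were present in every library. Of the 33 sites held by cal. res., 13 overlapped a FOXO1 region (39.4%, exact 95% binomial interval 22.9 to 57.9, counting error only), and 39.8% of all sites held by cal. res. did. Over all 93 sites, 15 overlapped FOXO1, or 16.1% against 13.9% of all GR sites. Of these 15, 11 were present in all 6 lists, ctrl. included (73.3%), where the share was 57.5% of all GR sites with FOXO1. Of the 78 sites without FOXO1, 6 were in all 6 lists, or 7.69% against 9.01% of all such sites. The FOXO1 list covers cal. res. only, so FOXO1 at these sites in ctrl. livers was not measured.

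The FOXO1 regions of the 7 genes had fold enrichments from 4.36 to 12.1 with a median of 6.30, and their percentiles ran from 8.25 to 91.8. The strongest were both upstream of *Trib3*, at -16.5 kb (12.1-fold over background, rank 664 of 8068) and at -19.7 kb (9.91-fold, rank 1125). *Irs2* followed with 8.63-fold just upstream of its start, and *Trib1* with 8.54-fold over its start and 8.14-fold within the gene. The *Insr* intron region reached 8.05-fold. FOXO1 lay at the starts of 5 genes, *Insr* (6.30-fold), *Irs1* (7.30-fold), *Irs2*, *Trib1* and *Pik3r1* (4.36-fold, among the weakest of the whole list). Of the 17 regions, 16 overlapped a GR site, and the share of all FOXO1 regions that did is not given here. The exception among the 17 lay at *Trib3* -2.8 kb (chr2:152346748-152346981), with 4.58-fold enrichment and an insulin response core near its summit.

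At *Insr*, the receptor gene, 3 sites were in all 6 lists and each overlapped FOXO1. The intron site at +23.1 kb (chr8:3256026-3257021) ranked at percentile 81.8 and 6.51 under ctrl. feeding, 75.5 and 90.9 under cal. res. and 65.1 and 81.5 with CORT. The low value of ctrl. replicate 2 set it apart, and the other 5 libraries overlapped. With lists of equal length the values were 47.2 and 6.51, 55.4 and 86.4, and 17.5 and 41.9, so both cal. res. libraries then ranked highest. The site over the 5′ UTR and start (chr8:3279072-3279982) ranked at 76.0 and 61.1 under ctrl. feeding, 51.7 and 41.2 under cal. res. and 80.6 and 87.1 with CORT. There both cal. res. libraries were below and both CORT libraries above all others. With lists of equal length the values were 30.1 and 61.1, 11.9 and 11.5, and 54.2 and 59.5, so cal. res. was still the lowest, but ctrl. replicate 2 lay above CORT. The intron site at +48.9 kb ranged from 6.93 to 67.6 with the groups overlapping.

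At *Irs1*, a docking protein gene, the start carried the leading site (chr1:82290102-82292031), which overlapped FOXO1. It ranked at 91.4 and 67.2 under ctrl. feeding, 69.3 and 37.7 under cal. res. and 88.1 and 81.4 with CORT. The cal. res. values overlapped those of ctrl. and lay below those of CORT. With lists of equal length the upper cal. res. value (44.1) passed that of CORT replicate 2 (41.5). The site in the intron at +7.6 kb (chr1:82283036-82284672) had no peak in either cal. res. library, although it ranked at 71.6 and 32.3 in ctrl. and at 72.3 and 78.0 in CORT. No FOXO1 region overlapped it.

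At *Irs2*, the second docking protein gene, 4 sites overlapped FOXO1. The site at -0.9 kb (chr8:11008618-11010128), in an intron of the transcript *9530052E02Rik* that starts beside *Irs2*, ranked at 95.1 and 91.0 under ctrl. feeding, 86.8 and 89.0 under cal. res. and 97.9 and 73.5 with CORT. The site at +42.9 kb (chr8:10965168-10965987) ranked between 77.8 and 89.4 in all libraries, the narrowest range of the *Irs2* sites in all 6 lists. With lists of equal length it ranged from 35.4, in ctrl. replicate 1, to 81.9, in ctrl. replicate 2. The FOXO element and hexamers shown above lay around its FOXO1 summit and not in the window around its GR summit. The site at -47.4 kb (chr8:11055528-11056097) was held by cal. res. only. It ranked at 73.2 and 63.5 there, at 22.3 in ctrl. replicate 1 and at 39.6 in CORT replicate 1, and had no peak in the other two libraries. FOXO1 bound it with 5.34-fold enrichment. The site at -2.8 kb was held by CORT, at 30.1 and 8.80, and had a peak in 1 ctrl. library (70.9) and in 1 cal. res. library (63.0).

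At *Pik3r1*, which encodes the regulatory subunit, the site over the gene start (chr13:101767291-101769072) ranked at 86.9 and 22.7 under ctrl. feeding, 68.0 and 51.3 under cal. res. and 96.6 and 89.0 with CORT. Both CORT values were above all others. The -44.0 kb site with the palindromic element (chr13:101811870-101812525) ranked at 62.7 and 79.2, 87.3 and 78.1, and 75.3 and 84.6, with all groups overlapping. The intron site at +49.2 kb, which overlapped FOXO1, had no peak in ctrl. replicate 2, ranks of 84.8 and 13.8 under cal. res. and ranks of 93.9 and 59.8 with CORT. The FOXO1 site at -11.0 kb ranked at 87.4 in ctrl. replicate 1, 75.2 in cal. res. replicate 1 and 69.1 and 78.7 in CORT. Peaks in neither ctrl. library were found at +9.9, +6.4 and -9.7 kb, all 3 held by CORT and the +6.4 kb site by cal. res. as well.

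*Akt2*, the kinase gene, had 1 site in all 6 lists, spanning its start and first intron (chr7:27591165-27593834), and no FOXO1 region. It ranked at 81.3 and 57.5 under ctrl. feeding, 44.4 and 56.0 under cal. res. and 79.1 and 77.3 with CORT. Both cal. res. values were below all others, the upper of them close to the lower ctrl. value. With lists of equal length that upper value (33.8) lay above CORT replicate 2 (28.8). The site at the start of the neighbouring gene *Pld3*, at -38.4 kb, ranked at 33.6 and 22.5 in ctrl. and at 59.3 and 73.5 in CORT, and in cal. res. it had a single peak at 12.1. With lists of equal length neither cal. res. library nor ctrl. replicate 1 had a peak there.

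The 2 pseudokinase genes carried the strongest GR sites. *Trib1* had a site across its start (chr15:59647269-59649118) at 98.8 and 96.4 under ctrl. feeding, 94.3 and 92.7 under cal. res. and 99.1 and 97.8 with CORT. Both cal. res. libraries were the lowest there, by a few percentile points. Its site in the gene body (chr15:59651503-59654404), which spans both remaining FOXO1 regions of *Trib1*, ranked at 96.4 and 74.4, 88.1 and 91.9, and 93.4 and 96.1. The ctrl. values enclosed those of both other groups, and both cal. res. values lay below both CORT values. With lists of equal length the upper cal. res. value (87.83) passed both CORT values (84.44 and 87.77). The site at +30.9 kb had a peak in the CORT libraries only, at 31.0 and 32.0.

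*Trib3* had its leading site at -16.2 kb (chr2:152359566-152360987), at 97.4 and 95.9 under ctrl. feeding, 98.6 and 97.6 under cal. res. and 98.1 and 99.0 with CORT. The nearest coding gene was *Trib3* itself, whereas the next 2 upstream lay closer to *Nrsn2*. All libraries placed it in the top 5% of their lists, ctrl. included. The FOXO1 site at -19.7 kb ranked at 85.3 and 32.7, 81.6 and 45.6, and 52.7 and 73.8, with the groups overlapping. Between these, the -18.1 kb site (chr2:152361863-152362306) had the highest ranks in cal. res., at 91.9 and 90.1. Ctrl. replicate 2 had it at 80.9, ctrl. replicate 1 had no peak, and CORT had it at 23.3 and 69.4. The start of *Trib3* itself had peaks in 1 cal. res. library (4.57) and in both CORT libraries (17.8 and 43.2), and none in ctrl.

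**Figure D3:**
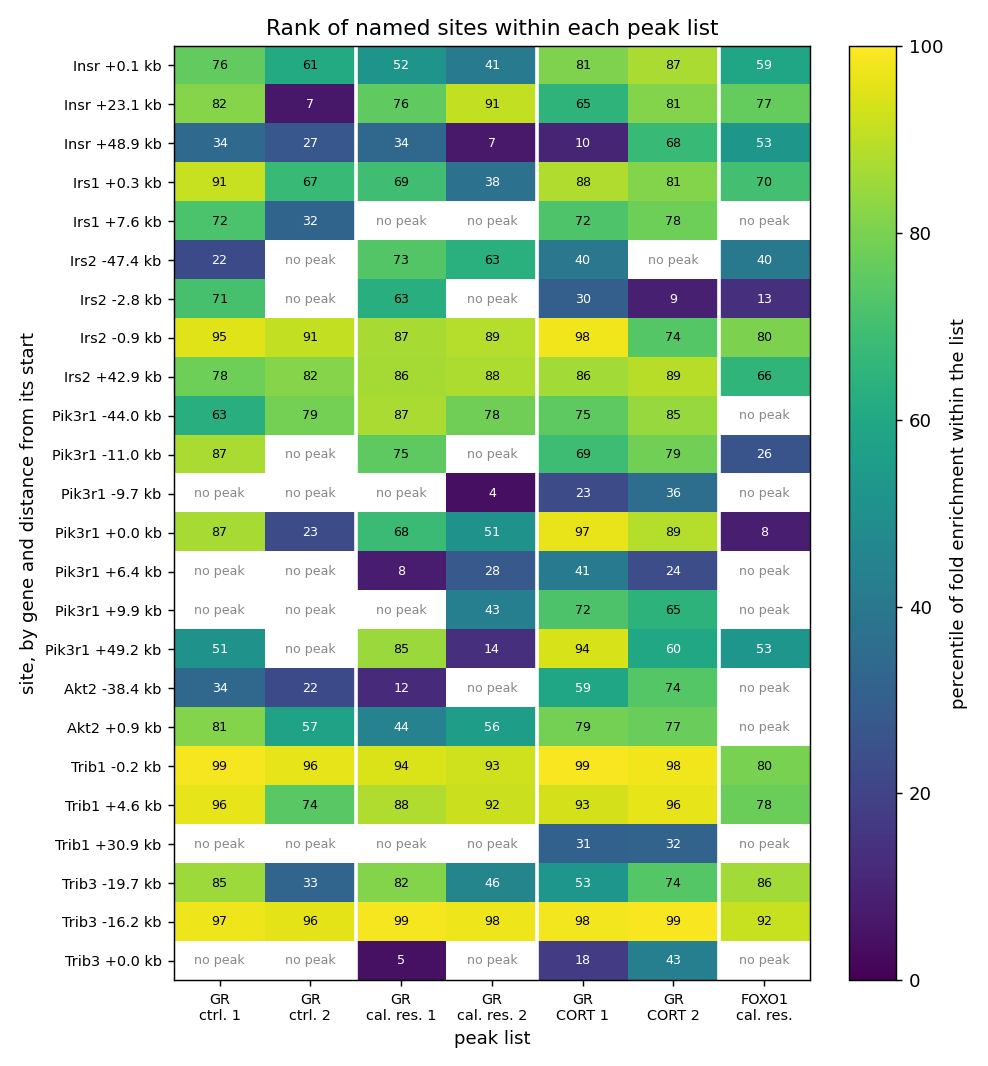
Percentile of fold enrichment within each list (colour and number, 0 to 100) for the 24 named sites (rows, by gene and distance from its start) in the 6 GR lists and the FOXO1 list (columns), where white cells had no peak. The *Trib1* -0.2 kb and *Trib3* -16.2 kb rows are above 90 in all 6 GR columns, whereas *Irs1* +7.6 kb is empty in both cal. res. columns and *Insr* +23.1 kb is low in ctrl. replicate 2.

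Sites at which both libraries of a group ranked above or below all 4 others were counted, with an absent peak ranked at 0. Both cal. res. libraries were highest at 4 of the 93 sites (4.30%), where 1.44% of all GR sites had this order. These were *Pik3r1* +29.3 kb, *Trib3* -18.1 kb, *Irs2* -4.8 kb and *Irs2* -47.4 kb, named after their values were seen, and their order is what chose them. *Pik3r1* +29.3 kb ranked at 69.3 and 65.7 in cal. res., 23.97 in ctrl. replicate 1 and 34.5 and 33.0 in CORT. None of the 4 lay within 1 kb of a gene start, compared with 9.72% of all sites with this order, and 1 overlapped FOXO1. Both cal. res. libraries were lowest at 6 sites (6.45%), against 4.66% of all sites, and 5 of the 6 lay at a gene start, those of *Insr*, *Trib1*, *Akt2* and the neighbours *Pld3* and *Rbck1*. Of all GR sites with this order, 72.5% lay at a gene start. The sixth was *Irs1* +7.6 kb. Both CORT libraries were highest at 16 sites (17.2%), against 13.3% of all sites, and lowest at 0, against 0.383%. Of the 16, 6 lay at *Trib1* and 5 at *Pik3r1*, and 4 lay at a gene start, where 45.3% of all sites with this order did. With lists of equal length, a setting added after seeing the data, both cal. res. libraries were highest at 5 sites, 3 of them among the 4 above, against 3.98% of all sites. They were lowest at 4, all among the 6 above, against 2.17%. Both CORT libraries were then highest at 2, against 3.82%, and lowest at 2, against 1.93%. The summit stretches of 2 of the 4 sites highest in cal. res. follow as examples, and neither held a searched motif.
Irs2 -47.4 kb (chr8:11055693-11055892): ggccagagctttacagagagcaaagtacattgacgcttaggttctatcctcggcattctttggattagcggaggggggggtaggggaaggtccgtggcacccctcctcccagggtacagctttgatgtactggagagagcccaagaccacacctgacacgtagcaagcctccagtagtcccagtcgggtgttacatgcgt
Pik3r1 +29.3 kb (chr13:101738828-101739027): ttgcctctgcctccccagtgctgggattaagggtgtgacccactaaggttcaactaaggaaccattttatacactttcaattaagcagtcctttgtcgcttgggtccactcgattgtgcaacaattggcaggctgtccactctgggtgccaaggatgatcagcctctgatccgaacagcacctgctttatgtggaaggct

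Binding strength could be tested at the 17 sites present in all 6 lists. The log2 fold enrichment was quantile normalized over the 8097 such sites of the genome and fitted with limma. None of the 17 sites differed between groups after Benjamini-Hochberg adjustment over all 8097 sites. In the whole table limma called 0 sites (0%) between cal. res. and ctrl., 5 (0.0618%, all higher) between CORT and ctrl., and 0 (0%) between cal. res. and CORT, and 815, 998 and 1357 sites had an unadjusted p under 0.05. With −log10 p in place of fold enrichment limma called 0, 2 and 0. Of the 17 sites, 1, 2 and 3 had an unadjusted p under 0.05. A p above the threshold with 2 libraries per group does not show that binding was equal.

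*Insr* +23.1 kb had the largest difference between cal. res. and ctrl., with mean normalized log2 fold enrichments of 3.54 and 2.52, a difference of 1.02 ± 0.40 (SE, limma adjusted p = 0.444). Without ctrl. replicate 2 it fell to 0.57, and without ctrl. replicate 1 it was 1.503. With the name style as a covariate it was 1.502, a fit that in effect compares cal. res. with ctrl. replicate 2 alone. The sites with the most negative differences between cal. res. and ctrl. were the *Rbck1* start at *Trib3* +11.4 kb (-0.70 ± 0.34, limma adjusted p = 0.517), the *Trib1* start (-0.66 ± 0.35) and the *Irs1* start (-0.65 ± 0.35, both limma adjusted p = 0.545). Over the 17 sites, 7 differences were positive and 10 negative with a median of -0.10, and over all tested sites the median was 0.0022.

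Between CORT and ctrl., the *Pik3r1* start had the largest difference, with means of 3.78 and 2.85 and a difference of 0.93 ± 0.40 (limma adjusted p = 0.389). *Irs2* -12.9 kb had the most negative, at -0.83 ± 0.34 (limma adjusted p = 0.363). Between cal. res. and CORT, the *Pik3r1* start was lower in cal. res. by value, at -0.91 ± 0.40 (limma adjusted p = 0.289), as was *Trib3* +11.4 kb (-0.90 ± 0.34, limma adjusted p = 0.228). *Insr* +23.1 kb was higher in cal. res. by value, at 0.76 ± 0.40 (limma adjusted p = 0.374), as was *Irs2* -12.9 kb, at 0.77 ± 0.34. Differences at the leading sites of *Trib3* and *Irs2* were within 1 SE of 0 between cal. res. and CORT. Both comparisons with ctrl. use the same ctrl. libraries.

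**Figure D4:**
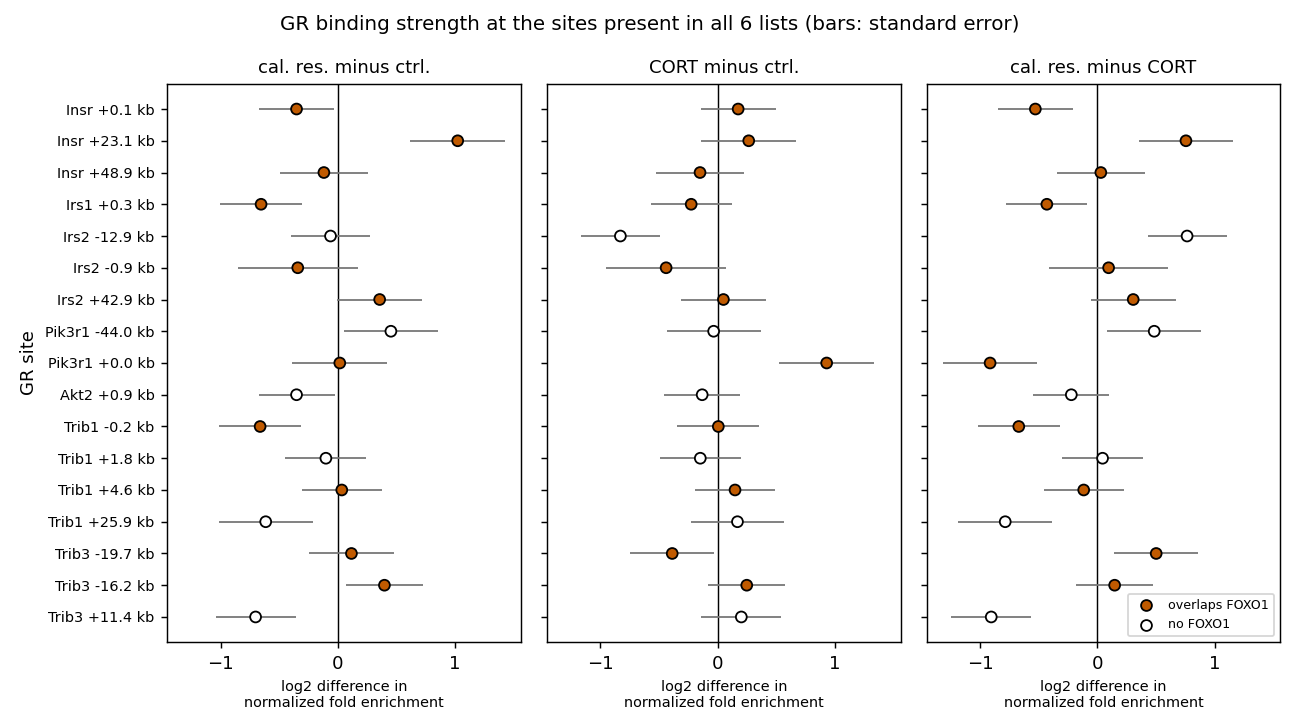
Difference in quantile-normalized log2 fold enrichment (horizontal axis) at the 17 sites present in all 6 lists, for each of 3 comparisons, with points at the limma estimate, bars of 1 standard error and filled points for sites that overlap FOXO1. *Insr* +23.1 kb lies farthest to the right in the first panel, at 1.02, and no site passed the threshold in any panel.

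The pathway holds many more components, and a wider list of 40 of its genes was counted in the same way. It covered kinases and phosphatases, adaptors, the mTOR and TSC complexes, FOXO factors and SOCS proteins. Of the 40, 23 had a FOXO1 region within 50 kb (57.5%), compared with 6 of the 7 genes above and 33.3% of all coding genes. *Foxo3*, itself an AKT-regulated forkhead factor, had the most with 6. A site held by ctrl. was found at 24, by cal. res. at 25 and by CORT at 34 of the 40, where the shares of all coding genes were 48.5%, 47.2% and 60.9%. Cal. res. held more sites than ctrl. at 9 and fewer at 6, against 20.6% and 15.8% of all coding genes. CORT held more at 27 and fewer at 1, against 46.5% and 3.25%. At their 42 tested sites limma called 0 in each comparison, and 5, 7 and 13 sites had an unadjusted p under 0.05. Between cal. res. and ctrl., 10 of the 42 differences were positive and 32 negative, with a median of -0.19. The 8097 sites tested over the genome split into 4067 positive and 4030 negative. Between CORT and ctrl., 19 of the 42 were positive and 23 negative (3941 and 4156 over the genome). Between cal. res. and CORT, 16 were positive and 26 negative (4315 and 3782 over the genome). How many of the 42 sites lay at a gene start is not given here.

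The genes most like each member were sought by the highest percentile within 50 kb in each of the 7 lists, as the root mean square difference over lists. *Trib3* was closest to *Gldc* (0.767 percentile points) and *Uvrag* (0.813), and *Trib1* to *Khdc1a* and *Khdc1c* (1.55 each, neighbouring genes that share sites). *Irs2* resembled *Kpna2* and *C6*, *Insr* resembled *Mrnip* and *Sqstm1*, *Pik3r1* resembled *Pop4* and *Lrrc42*, and *Akt2* resembled *Tsga10* and *Lipt1*, all between 2.36 and 3.76 points. *Mrnip* and *Sqstm1* had the same value (2.899), as did *Tsga10* and *Lipt1* (2.363), so each of these pairs may stand for shared sites. *Irs1* had the least similar nearest genes, *Fam47e* and *Pcgf2*, at 6.51 and 6.73 points.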

How the data were processed

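GR ChIP-seq peaks of 6 libraries from mouse liver, grouped by the titles in the labels into 2 of ctrl., 2 of cal. res. and 2 of CORT, and 1 FOXO1 list from 2 merged cal. res. libraries were used. The authors aligned reads to mm10 with BWA, filtered out duplicate and multi-mapping reads, and called peaks with MACS2, the GR libraries singly at a q of 0.1. As deposited, fold enrichment divides the pileup at the summit by the background around it, and p and q are given by the authors as −log10. The largest q was 9.84e-06 in the FOXO1 list and 0.0998 or less in the others, so the FOXO1 list is far stricter, and the file names mark only the GR lists as filtered for blacklisted regions. An input control is not given in the sources used here. Depth was not analysed here and limits how many peaks a list can hold.

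Summits of 1 region were reduced to the strongest, GR regions sharing at least 1 bp were merged into sites, and sites and FOXO1 regions were assigned to genes of GENCODE M21 by a centre within 50 kb of the gene start. Sequences came from RefSeq's GRCm38 genome, with bases in annotated UTRs left out. Sites with a peak in all 6 lists were tested with limma 3.58.1 in R 4.3.3 on quantile-normalized log2 fold enrichment, with 1 spread for all libraries and Benjamini-Hochberg adjustment at 0.05. The functions and fit were tested on simulated data. Other steps used Python 3.11.15, pandas 2.3.3, SciPy 1.17.1 and pysam 0.24.0.

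Sites named with values were, per gene, the 2 with the highest mean percentile, all that overlapped FOXO1, all held by cal. res. or CORT with no ctrl. peak, and FOXO1 regions without GR. Others are named as chosen for their rank order or motif after values were seen, or for the size of their difference. The members and lists were chosen with earlier results of these data known. Alternatives were other windows, thresholds, overlaps and scalings, the nearest gene, the replicate block, the name style and leaving out each library.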

Additional observations from a re-analysis of the deposited data

How the results depend on the processing

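The difference in site number between CORT and ctrl. stayed positive under the settings tried (3.5 to 47 sites per library), whereas that between cal. res. and ctrl. changed sign without ctrl. replicate 2 and that between cal. res. and CORT with lists of equal length. No site near the 7 genes passed the limma threshold under any setting tried. The cause of each change was not tested unless the setting itself shortens a list or drops a library. Strength was tested at sites with a peak in every list, so a site that a list lacks has no test.

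With a window of 25 kb, sites held over ctrl. numbered 10 in cal. res. and 19 in CORT. With 100 kb, ctrl., cal. res. and CORT held 36, 61 and 81 sites, 30 and 45 were held over ctrl., and 27 FOXO1 regions were counted. FOXO1 regions at or above the median fold enrichment of their list left 11 regions. With lists limited to equal length, the difference between cal. res. and CORT reversed to 2.5 sites per library, cal. res. held 21 and CORT 20 sites, and 8 and 7 were held over ctrl. Sites with both CORT libraries highest fell from 16 to 2. At a q of at most 1e-05, ctrl. held 9, cal. res. 20 and CORT 28, of which 19 were held over ctrl. With either library enough, the groups held 58, 50 and 85, and 8 were held by cal. res. over ctrl.

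Leaving out each library in turn gave -15.5 to 21.5 sites per library between cal. res. and ctrl., negative without ctrl. replicate 2. Ctrl. then held 19 to 57 sites and CORT 48 to 75, and the sites held over ctrl. ranged from 2 to 24 in cal. res. and from 6 to 56 in CORT. The number of limma calls between CORT and ctrl. ranged from 0 to 7, and between cal. res. and CORT from 0 to 176, the latter without ctrl. replicate 1, while 58 were called without ctrl. replicate 2.

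Calls over all 8097 tested sites between cal. res. and ctrl., CORT and ctrl., and cal. res. and CORT numbered 5, 13 and 239 with median centring in place of quantile normalization, of which 91 were higher and 148 lower in the last. Among sites with a mean fold enrichment above the median they numbered 0, 9 and 57. For CORT and ctrl. they numbered 2 with −log10 p and 2 at sites of at most 1000 bp. With the replicate number as a block, which the check of deviations did not bear out (r = -0.112, -0.144 and 0.129 between the pairs of groups over 8097 sites), CORT and ctrl. gave 2 calls, and the block left each difference in site number as it was, with exact sign-flip p of 1, 0.5 and 0.5. With the ctrl. numbers crossed, a setting added after seeing the data, the 3 comparisons gave 0, 14 and 58 calls.

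At the leading site of each gene, no call was gained or lost and 22 differences changed sign. The effect of the name style is estimated from the difference between the 2 ctrl. libraries alone. Each comparison with ctrl. then rests on the ctrl. library of the same style. For *Pik3r1*, the difference between cal. res. and ctrl. (0.45) was -0.15 with the name style as a covariate, and that between cal. res. and CORT (0.49) was -0.73. Its difference between CORT and ctrl. (-0.03) was 0.57 with the name style, 0.0038 with median centring, 0.0904 with −log10 p and 0.0543 at sites of at most 1000 bp. For *Trib3*, -0.15 was found with −log10 p between CORT and ctrl. (0.25) and -0.25 with the name style between cal. res. and CORT (0.15). For *Insr*, the difference between CORT and ctrl. (0.27) was -0.215 with the name style and -0.0238 with median centring. For *Irs2*, that between cal. res. and CORT (0.10) was -0.21 with the name style. Leaving out each library in turn, the difference between cal. res. and ctrl. ranged from -0.16 to 1.135 at the leading site of *Pik3r1*. Between CORT and ctrl. it ranged from -0.50 to 0.0595 at *Irs1*, from -0.65 to 0.62 at *Pik3r1*, from -0.41 to 0.40 at *Trib1*, from -0.29 to 0.0299 at *Akt2*, from -0.23 to 0.74 at *Insr* and from -1.39 to 0.53 at *Irs2*, where the extremes followed from leaving out 1 or the other CORT library at *Irs1*, *Trib1*, *Akt2* and *Irs2* and 1 or the other ctrl. library at *Pik3r1* and *Insr*. Between cal. res. and CORT it ranged from -0.86 to 1.05 at *Irs2*, again with the 2 CORT libraries.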

Other observations

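The 50 kb window left out the strongest binding in the surroundings of several of the genes. Between 50 and 200 kb from the 7 gene starts lay 33 further FOXO1 regions, and a member was the nearest coding gene of 21 of them. *Irs2* had 10, all of them with *Irs2* as the nearest coding gene, *Trib1* 5 of 6 and *Pik3r1* 4 of 4. These regions were looked at after the values were seen.

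The FOXO1 region with the highest fold enrichment of the whole list, 47.4-fold (rank 1 of 8068), lay 128.9 kb downstream of the *Irs2* start (chr8:10879000-10880196), in an intron of the transcript *B930025P03Rik*. The GR site there ranked at 95.2 and 77.7 under ctrl. feeding, 67.5 and 89.7 under cal. res. and 95.4 and 91.1 with CORT. In these lists of unequal length, the ctrl. values overlapped those of both other groups, and both cal. res. values lay below both CORT values. The 200 bp around its FOXO1 summit (chr8:10879577-10879776, plus strand) held 1 FOXO element, in capitals.
FOXO1 rank 1: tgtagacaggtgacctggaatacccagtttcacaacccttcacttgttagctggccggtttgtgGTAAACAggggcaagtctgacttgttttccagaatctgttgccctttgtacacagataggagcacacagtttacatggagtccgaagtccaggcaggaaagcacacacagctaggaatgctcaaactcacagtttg

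*Pik3r1* had a stronger GR site outside the window than any inside it. At +70.1 kb, in an intron of *Pik3r1* (FOXO1 region chr13:101697985-101698322), GR ranked at 99.4 and 99.3 under ctrl. feeding, 99.7 and 99.5 under cal. res. and 99.2 and 99.7 with CORT, with FOXO1 at percentile 53.4. Downstream of *Trib1*, the FOXO1 region at +138.5 kb had 17.4-fold enrichment (rank 219), with GR at 97.7 and 92.9 under ctrl. feeding, 98.6 and 98.5 under cal. res. and 96.6 and 97.5 with CORT. Neither position showed groups far apart, and no test was run on them.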
